A study of Homo sapiens with 20 samples.

Results

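Distal 3'UTR m6A regions were the regions of the merged peak list whose position lay in the 3'UTR of a protein-coding canonical transcript, more than 200 bases past the stop codon and in no canonical coding sequence (CDS). The position of a region was the median summit of the peaks that fell in it. Only the position had to be distal, so a wide region could reach across the stop codon into the CDS. Its fold enrichment in a library was that of its highest peak there. There were 3878 such regions, 8.88% of the 43676 merged regions, and they lay in 2931 genes. The 2445 regions within 200 bases of the stop codon (stop-proximal) and the 13636 CDS regions served for comparison. Methylated RNA immunoprecipitation and sequencing (MeRIP-seq) had been done on 2 human bladder cancer cell lines. T24 is cisplatin-sensitive, and T24R2 is a cisplatin-resistant line made from it by serial exposure to the drug and kept in cisplatin-containing medium, so that its selection history and its drug exposure cannot be told apart. Both lines were labelled wild type and were taken at day 3, in RPMI with serum to which cisplatin was added for T24R2 only. Each line had 5 pull-down (IP) libraries and 5 inputs. Only the IP peak lists, 10 in all, entered the comparisons. Nothing in the labels says that the replicates were separate cultures, so p-values measure the spread between these libraries only. Of 12 epithelial and urothelial marker genes, 4 had a called exonic region. A peak needs a transcript as well as a modification, so a missing call cannot be told apart from a scarce transcript.

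N6-methyladenosine (m6A) is written onto nascent mRNA by the METTL3 and METTL14 methyltransferase complex, mostly at adenosines in the DRACH context, where D stands for A, G or U, R for A or G and H for A, C or U. It is best known as a mark that clusters around stop codons and along 3'UTRs. The 3'UTR is also where microRNAs, AU-rich element binding proteins and Pumilio proteins act on mRNA stability and translation, and m6A there is read by YTH-domain and IGF2BP proteins. MeRIP-seq resolves a fragment and not a base, so a region may hold several candidate adenosines.

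The sequence around the DRACH match nearest the summit is given here for the members that the comparisons below turn on, 25 bases from hg38 read 5′ to 3′ on the transcript strand, with the match in capitals. A match is a description and not a mapped site. The first set holds regions called in 1 line only and shows both regions of SH3PXD2A, the gene that had 1 of each direction.
SH3PXD2A, T24R2 only, chr10:103594970-103594994, minus strand: caaagagcagTGACCacaatgggtc
SH3PXD2A, T24 only, chr10:103600468-103600492, minus strand: ggcagaggggGGACCcggctggccc
B4GALNT3, T24R2 only, chr12:561672-561696, plus strand: aggccaggagGGACCacttgctcag
INF2, T24R2 only, chr14:104721699-104721723, plus strand: gcagcaagtgAGACCatcgcccctc
CBX8, T24R2 only, chr17:79793448-79793472, minus strand: gtgtggctgaGGACCacggctcgga
ARHGEF4, T24 only, chr2:131047051-131047075, plus strand: cacacaggacTGACCcacagcccag
The second set holds regions called in all 10 libraries whose rank differed between the lines.
IGFBP5, higher in T24R2, chr2:216674540-216674564, minus strand: gctcatggcaTGACAcagcggagac
CDH4, lower in T24R2, chr20:61937190-61937214, plus strand: gaatttcctaGAACAgaagcactgt
TP73, lower in T24R2, chr1:3733537-3733561, plus strand: agcagccaagTGACTgtgtctgaaa
VCAN, lower in T24R2, chr5:83581134-83581158, plus strand: cctgaatggaGGACTtttctgtaac
The last is a region with high enrichment in every library.
CHMP6, chr17:80999954-80999978, plus strand: ccagcagccaGGACTggaggctgtg

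Distal regions thinned out with distance from the stop codon. Their median distance was 827 bases, with quartiles at 371 and 1831 bases, and the farthest lay 17637 bases past the stop in AAK1, a clathrin adaptor kinase. Over the 8684 coding genes that had an exonic region and a 3'UTR of more than 200 bases, there were 65.0 regions per 100 kb between 200 and 400 bases. The density was 28.3 to 800, 19.2 to 1600, 13.0 to 3200 and 9.39 beyond 3200 bases. The first 200 bases gave 141, an upper limit. That count could take in stop-proximal regions of genes with shorter 3'UTRs, whose bases were left out. The fall was steeper for regions called in all 10 libraries, from 30.2 per 100 kb between 200 and 400 bases to 2.41 beyond 3200 bases. Their value in the first 200 bases, 62.8, is an upper limit for the same reason. Cut into 10 equal parts, the 3'UTR held between 7.17% of members in its last part and 15.1% in its second, so that the regions spread over its whole length. Only 350 of the 3878 (9.03%) lay within 200 bases of the annotated 3' end. The 3'UTR of most members was a single exon, and 173 members (4.46%) lay in an exon downstream of the one with the stop codon. The threshold of 200 bases fell in a continuous distribution. The members just inside it, up to 220 bases, had a mean percentile of fold enrichment within the library of 56.6, and 45.3% of them were called in all 10 libraries. The 190 regions in the last 20 bases before it had 52.4 and 48.4%. At 255 members (6.58%) the position also lay in an exon of another gene, where the transcript of origin is uncertain.

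**Figure D1:**
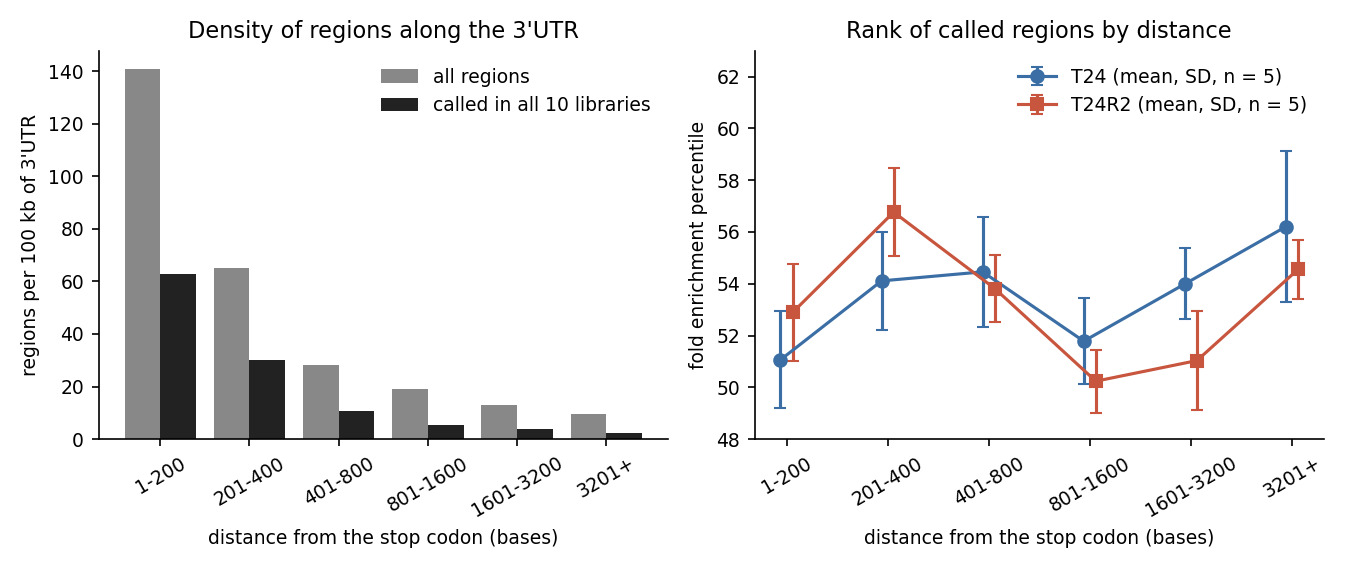
Left, regions per 100 kb of 3'UTR in bins of distance from the stop codon (bases), for all regions and for those called in all 10 libraries; right, mean fold enrichment percentile of called regions in the same bins, with points for the mean and bars for the SD of 5 libraries per line. Density fell from 65.0 per 100 kb between 200 and 400 bases to 9.39 beyond 3200 bases. The first bin (141) is an upper limit, since its count could take in genes with shorter 3'UTRs whose bases were left out. In the right panel T24R2 stood above T24 between 200 and 400 bases (56.8 against 54.1) and below it between 1600 and 3200 bases (51.0 against 54.0).

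Genes with longer 3'UTRs had distal regions more often. The 8684 genes were cut into 4 groups of near equal size by 3'UTR length. Of the genes with the shortest 3'UTRs (up to 826 bases) 16.8% had a member, against 34.6%, 38.7% and 44.9% in the following groups, the last of which reached from 3193 to 32870 bases. Most genes had a single member (2262), and 669 (22.8%) had 2 or more. A region assigned to the stop-proximal class was present in 463 of the 2931 genes (15.8%) and one assigned to the CDS in 1690 (57.7%). The other 1050 genes (35.8%) had a distal region and none assigned to either class. Each region was counted once, by its position, so signal at the stop codon inside a wide distal region does not show in these counts. Where a gene had both a distal and a stop-proximal region, both were called in all 10 libraries in 85 genes, the distal alone in 63 and the stop-proximal alone in 159.

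DRACH was found on the transcript strand within 50 bases of the position in 3585 members (92.4%), against 77.4% on the other strand of the same windows and 83.0% of 56774 tiles of the same length cut from the distal 3'UTRs of the same transcripts outside all regions. The nearest match lay at a median of 11 bases from the position, against 16 bases on the other strand. The shorter motif GGAC, which DRACH includes when the next base is not G, separated the windows more: 47.5% of members, 25.04% on the other strand and 20.2% of tiles. The tiles were poorer in G and C (43.7% against 50.4% in members), and the part of base composition in these shares was not tested. By number of calls, DRACH was in 95.3% of the 1360 members that all 10 libraries called and in 89.0% of the 734 that 1 library called, and GGAC in 54.0% and 40.5%. Elements tied to 3'UTR function were less frequent in members than in tiles: the AU-rich pentamer ATTTA was in 8.46% against 16.1%, the polyadenylation signal AATAAA in 5.03% against 7.16%, and the Pumilio motif TGTANATA in 0.851% against 1.87%. The other strand showed the same order, with 7.86% against 15.9%, 3.79% against 9.33% and 0.619% against 1.13%. Over all regions with sequence, read on the plus strand of the genome, DRACH was in 79.8%, GGAC in 33.9%, ATTTA in 7.59%, AATAAA in 3.87% and TGTANATA in 0.469%. A missing match says only that these letters were not in the window.

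**Figure D2:**
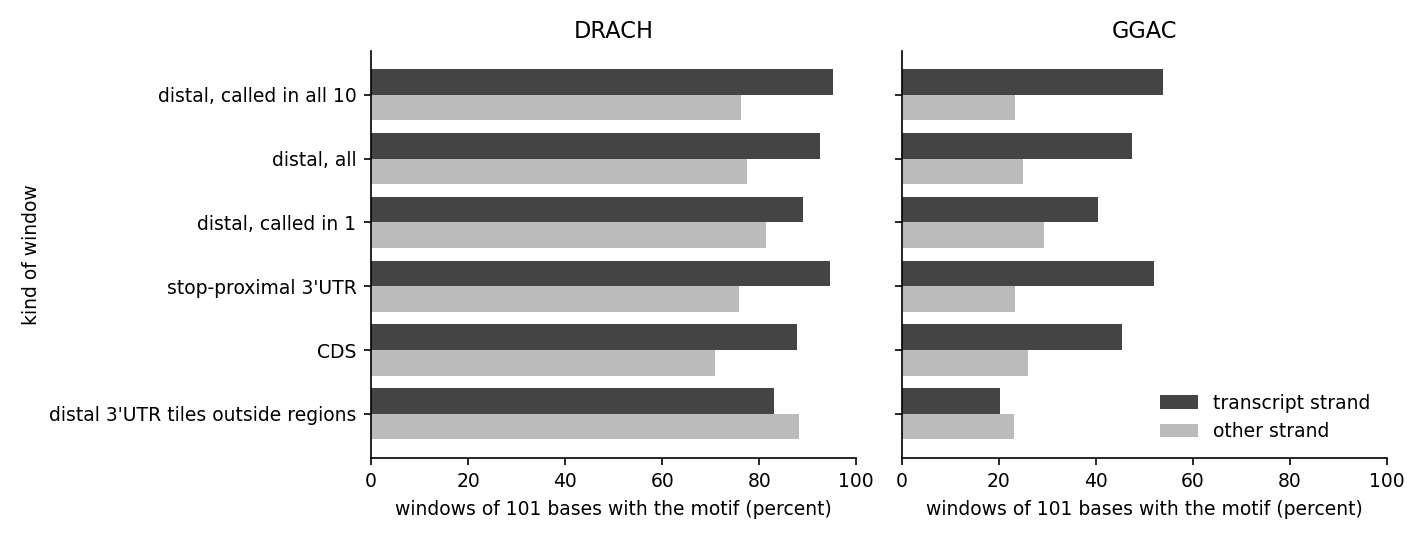
Share of windows of 50 bases on either side of the position (percent) that hold DRACH or GGAC, on the transcript strand (dark bars) and on the other strand (light bars), for distal regions by number of calls, stop-proximal and CDS regions, and tiles of the same 3'UTRs outside regions. GGAC on the transcript strand fell from 54.0% in distal regions called in all 10 libraries to 20.2% in tiles, whereas on the other strand these were 23.3% and 23.2%.

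Counted over the regions called in each library, the DRACH share was slightly lower in distal than in stop-proximal regions in every library. The difference was -1.20 ± 0.40 percentage points (SD, n = 10), with single libraries between -1.95 and -0.740 (exact two-sided sign-flip test over 10 libraries, p = 0.00195, the smallest it can give, adjusted p = 0.00456 over 7 such tests). The libraries share most of their regions. Distal regions called in T24 held DRACH in 94.4% ± 0.38 and those called in T24R2 in 93.7% ± 0.57 (SD, n = 5 each; exact permutation p = 0.0476, adjusted p = 0.0952 over 24 comparisons of the lines).

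More distal regions were called in T24R2 than in T24. The 5 T24 libraries called 2164, 1835, 2162, 2254 and 2019 of them, and the 5 T24R2 libraries called 2394, 2471, 2352, 2666 and 3148. The lines did not overlap, and the means were 2087 ± 164 and 2606 ± 326 (SD, n = 5 each), a difference of 519 (exact two-sided permutation test, p = 0.00794, the smallest it can give, adjusted p = 0.0381 over 24 comparisons). T24R2 also had more peaks in all, 22671 to 33120 per library against 17203 to 22901. With the same number of peaks (17203) kept in each library the difference was 146 (exact permutation p = 0.0397). As a share of all called regions, distal regions made up 11.6% ± 0.50 in T24 and 10.9% ± 0.39 in T24R2 (exact permutation p = 0.0556), and with equal peak numbers the direction turned, to 0.306 percentage points higher in T24R2 (p = 0.0873 in the exact test). The mean position of the called distal regions along the 3'UTR was 41.9% ± 0.63 of its length in T24 and 43.1% ± 1.12 in T24R2 (exact permutation p = 0.0397, adjusted p = 0.0866). Leaving out single libraries moved this exact p to between 0.0159 and 0.119, and the unadjusted call was lost without T24 replicates 1, 2, 3 or 5 or T24R2 replicates 4 or 5 (differences of 0.728 to 1.28). Each distance bin had more of its regions called in T24R2: 76.8% ± 5.8 against 64.3% ± 4.3 between 200 and 400 bases and 61.5% ± 8.9 against 49.6% ± 7.2 beyond 3200 bases (SD, n = 5 each). The same held over all 43676 regions, of which 23974 ± 3914 were called per T24R2 library and 18118 ± 2095 per T24 library (SD, n = 5 each). The merged regions behind the distal calls had median widths of 544 ± 47 bases in T24R2 against 613 ± 27 in T24 (exact permutation p = 0.00794, adjusted p = 0.0381). Region bounds are shared by all libraries, and members called in 1 library were narrow (median 130 bases, against 763 for those called in all 10). The median went from 653 bases in the library with 1835 distal regions to 465 in that with 3148. It follows the number of calls and is no measure of peak width in a line.

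**Figure D3:**
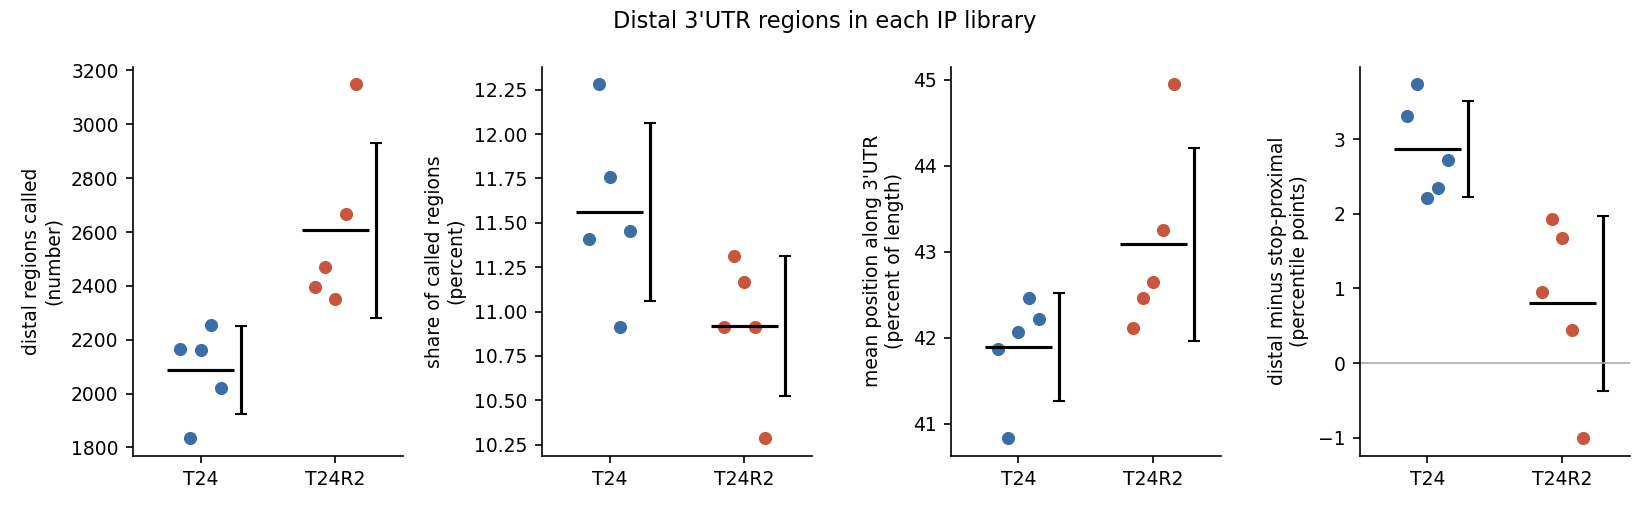
Each point is an IP library of T24 or T24R2, with the mean as a line and the SD as a bar (n = 5 each): number of distal regions called, their share of all called regions (percent), their mean position along the 3'UTR (percent of its length) and the mean percentile of distal minus that of stop-proximal regions (percentile points). The 5 T24R2 libraries lie above all T24 libraries in number (2352 to 3148 against 1835 to 2254) and below all of them in the last panel (-1.001 to 1.93 against 2.21 to 3.73).

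Fold enrichment, the ratio of IP over input at a peak as the peak caller gave it, was compared as a percentile among all peaks of the same library, from 0 to 100. A region with several peaks took the highest of their percentiles. Median width was 389.5 bases in members, 451 in stop-proximal and 307 in CDS regions, and the part of width in the differences below was not tested. Distal regions ranked above CDS regions by 5.02 ± 1.26 percentile points (SD, n = 10; exact sign-flip p = 0.00195, adjusted p = 0.00456), in 10 of 10 libraries. They ranked above stop-proximal regions by 1.83 ± 1.40 points (exact sign-flip p = 0.00781, adjusted p = 0.0137), in 9 of 10 libraries. For members more than 400 bases from the stop codon that second difference was -0.0035 (exact sign-flip p = 0.994), and for peaks of at least 4-fold enrichment it was 0.527 (exact sign-flip p = 0.334). The lines differed in it. Distal minus stop-proximal was 3.30, 3.73, 2.21, 2.35 and 2.72 points in the T24 libraries and 0.956, 1.93, 1.67, 0.438 and -1.001 in those of T24R2. The lines did not overlap, and the difference was -2.06 points (exact permutation p = 0.00794, adjusted p = 0.0381). It was -1.48 with equal peak numbers (exact permutation p = 0.0159). Inside each line, distal minus stop-proximal tended to be lower in libraries with more peaks. It went from 3.73 at 17203 peaks to 2.35 at 22901 in T24, and from 1.93 at 22671 peaks to -1.001 at 33120 in T24R2. The part of list length in the difference between the lines was not tested beyond equal peak numbers. The mean percentile of the distal regions themselves was 53.9 ± 1.4 in T24 and 53.7 ± 0.74 in T24R2 (exact permutation p = 0.714), and with equal peak numbers it was 2.04 points lower in T24R2 (exact permutation p = 0.0397). The distal minus CDS difference was 5.00 ± 1.17 in T24 and 5.04 ± 1.48 in T24R2 (exact permutation p = 0.984).

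Rank changed with distance differently in the lines, in a comparison chosen after the data were seen. Members between 200 and 400 bases minus members beyond 1600 bases gave -2.19, -0.989, -0.430, 2.08 and -2.11 percentile points in T24 and 2.86, 7.001, 0.512, 5.81 and 5.25 in T24R2. The lines overlapped in 1 pair of libraries, with means of -0.730 ± 1.74 and 4.29 ± 2.59 (exact permutation p = 0.0159, adjusted p = 0.0423). Among regions called in all 10 libraries, where both lines have the same regions, the means were -4.94 ± 1.70 and 1.19 ± 3.01 (exact permutation p = 0.00794, adjusted p = 0.0381). Within the 85 genes that had a distal and a stop-proximal region in all 10 libraries, distal minus stop-proximal was 1.43 ± 3.06 points in T24 and -3.93 ± 2.85 in T24R2 (exact permutation p = 0.0159, adjusted p = 0.0423), and it was lower in T24R2 in 50 of the 85 genes. This last difference went from -5.35 to -4.95 with equal peak numbers (exact permutation p = 0.0794).

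Of the 3878 members, 1360 (35.1%) were called in all 10 libraries, against 21.9% of all regions, 44.6% of stop-proximal and 33.1% of CDS regions. Another 734 (18.9%) were called in a single library, against 27.9% of all regions. Members called in all 10 were wider (median 763 bases, against 130 for those called once), ranked higher (median percentile 65.9 against 25.04) and lay closer to the stop codon (median 569 against 1069 bases). A call in at least 1 library of each line was made for 2450 members (63.2%), while 1073 had no call in T24 and 355 none in T24R2.

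Line-specific distal regions, called in 5 of 5 libraries of 1 line and 0 of 5 of the other, numbered 115 for T24R2 (2.97%, against 3.02% of all regions) and 57 for T24 (1.47%, against 1.05% of all regions). The first share was at the background and the second near it. No region passed Fisher's exact test after adjustment over all 43676 regions, since 5 against 5 gives at least p = 0.00794 and the smallest adjusted p was 0.195. At an unadjusted p under 0.05, 290 members were called more often in T24R2 (7.48%, against 7.11% of all regions) and 89 in T24 (2.30%, against 2.09%). With equal peak numbers there were 58 T24R2-only members (1.496%, against 1.27% of all regions), 41 of them among the 115. The T24-only members were then 54 (1.39%, against 1.14%), 40 of them among the 57. When peaks had to cover 50% of a region, 128 were T24R2-only (3.30%, against 2.25%), but just 26 of these were among the 115. Under that rule 33 were T24-only (0.851%, against 0.465%), 21 of them among the 57. Line-specific members lay at a median of 746 (T24R2) and 621 bases (T24) from the stop codon. Of the T24R2-only members, 29 of 115 had another exonic region of their gene called throughout, in every library, as had 10 of 57 T24-only members. These are 25.2% and 17.5%, against 46.0% of all members, so most line-specific members were in genes without such a region. In the genes with one, a transcript was present in both lines, and the regions named next come from them.

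SH3PXD2A, which encodes the invadopodium scaffold protein TKS5, was the only gene with both a T24-only and a T24R2-only distal region. The T24-only region (chr10:103599987-103600738) lay 1289 bases past the stop codon in a 3'UTR of 7789 bases. Its fold enrichment was 9.58, 7.72, 10.0, 9.81 and 10.3 in the T24 libraries, and it was called in none of T24R2. It was separated by 5 bases from a longer region, assigned to the CDS, that was called in all 10 libraries. The T24R2-only region (chr10:103594761-103595182) lay 6812 bases past the stop, with fold enrichments of 11.9, 10.1, 10.3, 7.09 and 9.69 in T24R2 and no call in T24. Both calls held in all 5 libraries of their line, and in none of the other, with equal peak numbers, with a −log10 q of at least 5 and with at least 4-fold enrichment. With 50% cover the T24R2-only region kept 5 calls and the T24-only region 4, with 0 in the other line. The neighbouring region was called in all 10 libraries with a mean percentile of 92.0 in T24 and 68.0 in T24R2.

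The other T24R2-only regions with the highest ranks were in genes of several functions. B4GALNT3, a glycosyltransferase that adds N-acetylgalactosamine, had its region 235 bases past the stop codon (chr12:561560-562062) with fold enrichments of 10.6, 11.2, 15.7, 8.96 and 15.7. A further B4GALNT3 region at 840 bases was called in 4 T24R2 and 0 T24 libraries, whereas a CDS region was called in all 10. In INF2, a formin that severs and polymerises actin, the region lay 2909 bases past the stop in the second exon of the 3'UTR (chr14:104721397-104722200) and had values of 9.08, 11.1, 7.88, 12.1 and 8.80. CBX8, a subunit of Polycomb repressive complexes, was called 1146 bases past the stop (chr17:79793366-79793842) at 9.04, 7.30, 8.55, 9.36 and 12.1. These 3 kept 5 calls against 0 with equal peak numbers, but with 50% cover B4GALNT3 and INF2 kept 2 calls and CBX8 kept 3. IQCE, a ciliary protein of the Hedgehog pathway, had 4 distal regions. Those at 497 and 3615 bases were called in all 10 libraries, that at 4345 bases in T24R2 only and that at 2592 bases in 4 T24R2 and 0 T24 libraries. TECPR2 (autophagy), GEMIN7 (SMN complex), PSD4 (an exchange factor for ARF6), IL17RA (interleukin-17 receptor) and TOMM40L (a homologue of the mitochondrial import pore) followed, with fold enrichments between 4.63 and 9.57. With equal peak numbers GEMIN7, IL17RA and TOMM40L kept 2 of their 5 calls. PSD4 showed the reverse upstream: CDS regions were called in 5 and 4 T24 libraries and in 0 of T24R2.

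Among the T24-only regions, ARHGEF4, a guanine nucleotide exchange factor, had a region 874 bases past the stop (chr2:131046840-131047212) with fold enrichments of 5.72, 6.90, 9.80, 7.39 and 8.92, at a position that also lies in an exon of SMIM39. KCNK6, a potassium leak channel, had one at 3963 bases (chr19:38331075-38331557) with 8.25, 4.88, 6.31, 13.3 and 11.6, and its stop-proximal region was called in all 10 libraries. YY1, a zinc finger transcription factor, had one at 2392 bases, in an exon of another annotated gene as well, with 8.72, 8.55, 11.4, 7.43 and 4.32, while its region at 229 bases was called in all 10. The others were in ICOSLG (the ligand of the T-cell costimulator ICOS), HS3ST1 (a heparan sulfate sulfotransferase), PLEKHA6, UBA6 (a ubiquitin-activating enzyme), DEPP1 and APOL1 (an apolipoprotein), with fold enrichments between 2.92 and 9.77. With equal peak numbers SH3PXD2A, ARHGEF4, KCNK6 and PLEKHA6 kept 5 calls against 0, and the other 6 kept 3 or 4 against 0. With 50% cover PLEKHA6 and UBA6 kept 5 calls, and the other T24-only regions named kept 2 to 4, as did the T24R2-only regions other than that of SH3PXD2A.

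**Figure D4:**
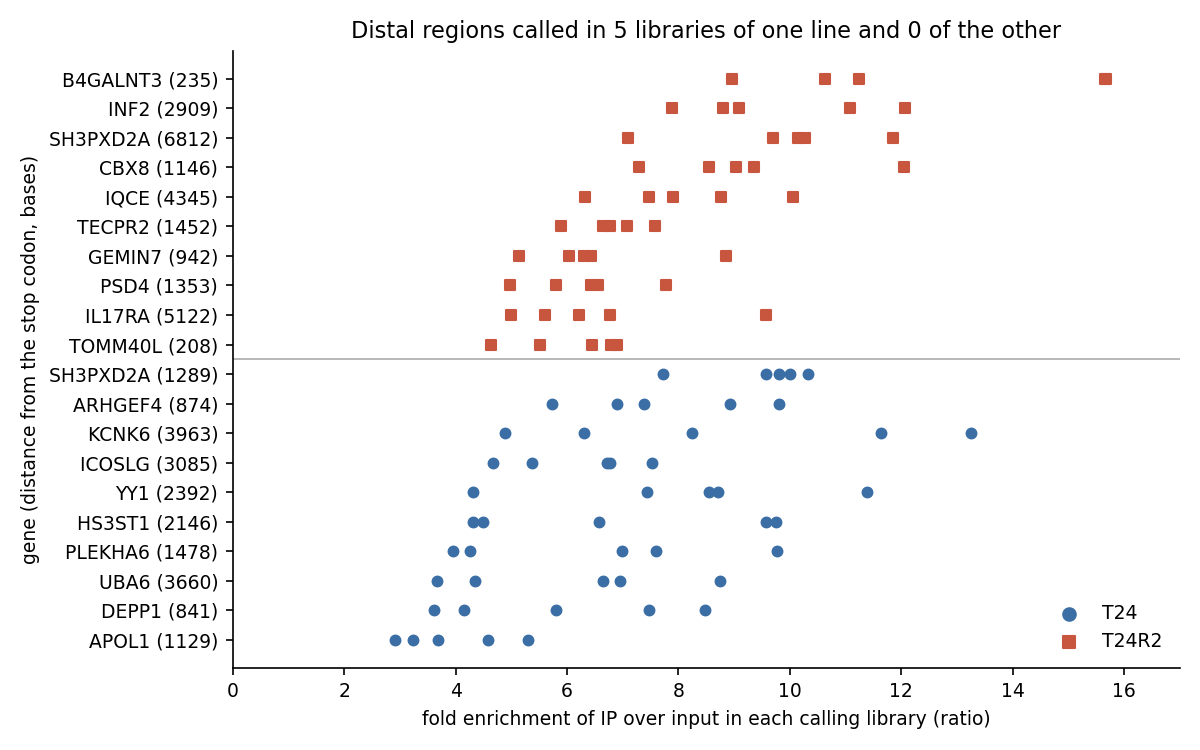
Fold enrichment of IP over input (ratio, horizontal axis) in each calling library for the 20 named line-specific distal regions, with the distance from the stop codon in bases after the gene, T24R2-only above the line (squares) and T24-only below it (circles). Each row has 5 points of 1 line and none of the other, and the values run from 2.92 in APOL1 to 15.7 in B4GALNT3.

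Among the 1360 members called in all 10 libraries, the rank within the library was tested with limma on normal scores over all 9577 such regions. Of the members, 7 ranked higher in T24R2 (0.515%, against 0.459% of all regions tested) and 9 lower (0.662%, against 0.334%) at an adjusted p under 0.05. The median difference was 0.02 over members and 0.00 over all regions tested, in units of normal scores. At an unadjusted p under 0.05 there were 97 higher (7.13%, against 7.12% of all regions tested) and 79 lower (5.81%, against 6.82%). Percentiles did not overlap between the lines in 55 members with T24R2 above (4.04%, against 3.63% of tested regions) and 13 with T24R2 below (0.956%, against 0.867%). Leaving out 1 library gave 2 to 6 higher and 4 to 7 lower members. The counts moved by over 1.5 times without T24 replicates 2, 3, 4 or T24R2 replicates 2, 3, 4 or 5 (2 to 4 higher) and without T24 replicates 3 or 5 or T24R2 replicates 2 or 4 (4 or 5 lower).

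Among the regions that ranked higher in T24R2, that of IGFBP5, a secreted binding protein of insulin-like growth factors, had percentiles of 54.8, 32.3, 45.4, 19.9 and 55.4 in T24 and 88.2, 86.7, 99.6, 91.1 and 95.4 in T24R2. It lay in the middle of the 3'UTR, 2194 of 4646 bases past the stop. The lines did not overlap, and the difference was 1.71 ± 0.38 (SE; limma adjusted p = 0.0280). GRB10, an adaptor that dampens insulin and IGF receptor signalling, had percentiles of 54.1, 8.77, 3.71, 3.59 and 10.2 in T24 and 97.0, 93.2, 71.9, 90.8 and 72.8 in T24R2, with T24 replicate 1 apart from the rest of its line (2.04 ± 0.40, limma adjusted p = 0.0130). HEMK1 (a glutamine methyltransferase), ENGASE (a cytosolic deglycosylating enzyme) and SEMA3F (a secreted semaphorin) also passed, with limma adjusted p-values of 0.0311, 0.0415 and 0.0488. ZMIZ2 had percentiles of 19.2 to 57.3 in T24 and 75.4 to 97.6 in T24R2 and did not pass (limma adjusted p = 0.0553). The call for GRB10 held in 14 of 15 alternative settings that could be fitted. IGFBP5, HEMK1, ENGASE and SEMA3F lost it in 7 or more, and for SEMA3F the direction turned when −log10 p was ranked in place of fold enrichment. The GRB10 and SEMA3F regions extended upstream of the stop codon, so their ranks need not come from a peak in the distal 3'UTR.

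CDH4, which encodes R-cadherin, had the smallest adjusted p among the members that ranked lower in T24R2. Its region 281 bases past the stop (chr20:61936627-61937457) had percentiles of 97.0, 89.7, 96.2, 98.9 and 97.5 in T24 and 44.3, 57.0, 37.3, 64.7 and 35.5 in T24R2, with no overlap, and a difference of -2.15 ± 0.33 (SE; limma adjusted p = 0.00250). The fold enrichments were 19.9, 12.4, 18.1, 22.7 and 16.6 against 6.21, 8.32, 5.53, 8.53 and 5.53. TP73, the p53 family transcription factor, ranked at 94.4, 77.6, 99.5, 97.6 and 98.7 in T24 and at 75.3, 59.7, 23.0, 32.9 and 66.4 in T24R2 (chr1:3732709-3734560, 445 bases past the stop; -2.04 ± 0.39, limma adjusted p = 0.0124). VCAN, the matrix proteoglycan versican, went from 98.2, 97.0, 98.2, 88.4 and 96.6 to 76.9, 50.3, 48.6, 57.8 and 72.9 (chr5:83580880-83581300, 696 bases past the stop; -1.79 ± 0.35, limma adjusted p = 0.0130). The T24 and T24R2 values did not overlap in either gene, and the VCAN position also lies in an exon of VCAN-AS1. CARD8, an inflammasome sensor, had 95.3, 77.6, 94.8, 99.3 and 99.7 in T24 and 78.3, 26.0, 67.2, 41.2 and 30.5 in T24R2 (-2.13 ± 0.42, limma adjusted p = 0.0132), with an overlap through T24 replicate 2. SRPK1 (a kinase of splicing factors), CRKL (a signalling adaptor), RAB26 (a vesicle-trafficking GTPase) and LRATD2 passed with limma adjusted p-values between 0.0263 and 0.0324. The call for CDH4 held in all 16 alternatives that could be fitted, those for TP73 and VCAN in 16 of 17 and that for CARD8 in 16 of 18. SRPK1, CRKL, LRATD2 and RAB26 lost it in 5 to 9. The regions of CDH4, TP73, CARD8 and RAB26 extended upstream of the stop codon. The peak that set their rank need not lie in the distal 3'UTR. The ninth member that passed, PLA2R1, is described with the transcripts of the study.

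**Figure D5:**
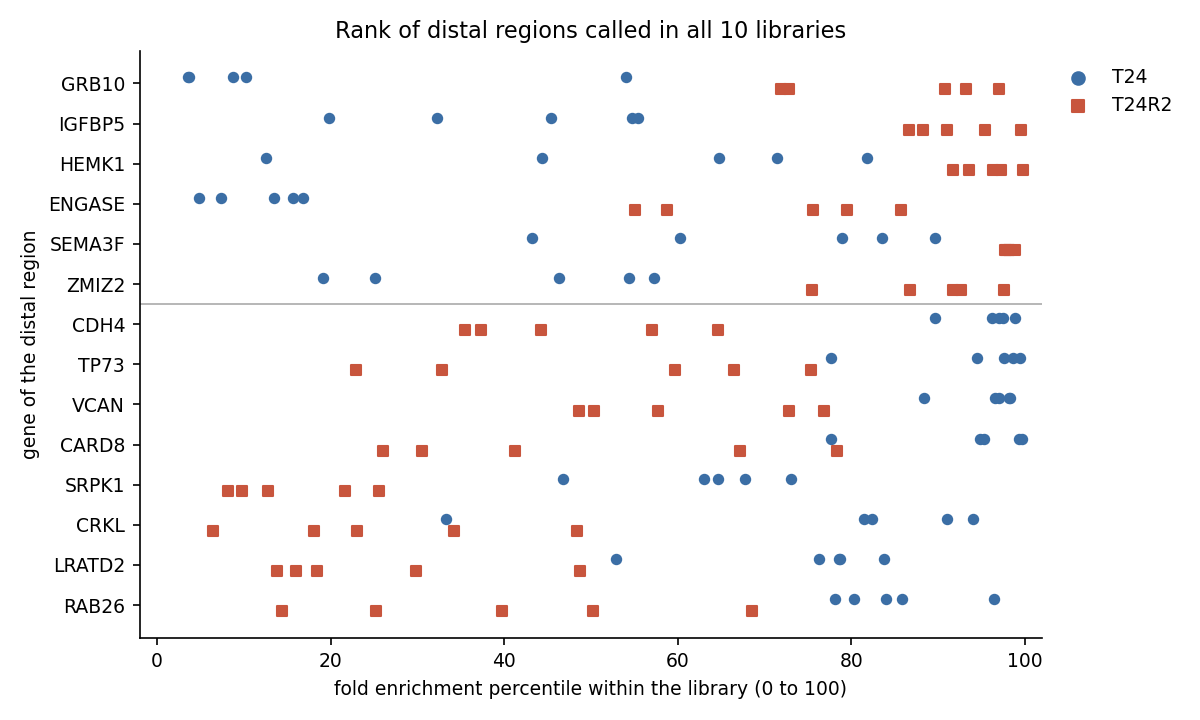
Fold enrichment percentile within the library (horizontal axis, 0 to 100) of 14 distal regions called in all 10 libraries, 5 points for T24 (circles) and 5 for T24R2 (squares) per gene, with 5 regions that ranked higher in T24R2 and ZMIZ2, which did not pass, above the line and 8 that ranked lower below it. IGFBP5 lies under 56 in every T24 library and above 86 in every T24R2 library, and CDH4 lies above 89 in every T24 library and under 65 in every T24R2 library.

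Some distal regions were near the top in every library. The region of CHMP6, a subunit of the ESCRT-III membrane scission machinery, lay 820 bases past the stop in a 3'UTR of 980 bases and had fold enrichments of 24.6, 24.2, 26.4, 25.7 and 17.3 in T24 and 19.6, 27.0, 22.4, 37.3 and 24.6 in T24R2. Its lowest percentile was 98.1, and its position also lies in an exon of another annotated gene. RNF144B (a ubiquitin ligase), MYORG (a glycosidase), ANKRD33B, QTRT2 (a subunit of the enzyme that puts queuine into tRNA) and ENTPD1 (the ectonucleotidase CD39) had lowest percentiles of 95.5, 94.4, 94.1, 93.9 and 92.3. The distance from the stop codon was 378 bases in RNF144B and 297 in QTRT2, but 3425 in MYORG, 4960 in ANKRD33B and 7745 in ENTPD1, so that high ranks were not confined to the part of the 3'UTR near the stop. The limma differences of the 6 were between -0.56 and 0.12, with adjusted p-values of 0.601 or more. Of these, CHMP6, RNF144B and QTRT2 had regions that reached upstream of the stop codon.

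A few 3'UTRs carried many distal regions. TBC1D16, a GTPase-activating protein for Rab proteins, had 8 along a 3'UTR of 8516 bases. Those at 569, 4564 and 8405 bases were called in all 10 libraries, that at 5516 bases in 0 T24 and 5 T24R2 libraries, and that at 2467 bases in 5 T24 and 1 T24R2 libraries. The region at 569 bases had fold enrichments of 9.22 to 16.9 in T24 and 9.76 to 21.0 in T24R2. It extended upstream of the stop codon, so the peaks with these values need not lie in the distal 3'UTR. BTBD9 had 7, of which 2, at 219 and 1147 bases, had a call in every library and 4 had 1 call only. TUG1, annotated as coding here although best known as a long noncoding RNA, had 7 over 3 exons. Of these, 5 were called in all 10 libraries, and the highest fold enrichment was at 1682 bases (6.99 to 16.4 in T24 and 6.25 to 12.5 in T24R2). Exons of other genes lay at 3 of the TUG1 positions. AMZ1 and C14orf132 had 6 each, tied with 5 other genes and taken in alphabetical order. Every library called 3 of those in C14orf132, and in AMZ1 none was called in more than 6.

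Machinery that acts on 3'UTRs was taken as 3 gene lists, with no line-specific member. Among genes with an exonic region, 1 of 12 cleavage and polyadenylation genes had a member. The counts were 9 of 24 for deadenylation, decapping and microRNA silencing and 7 of 23 for 3'UTR binding proteins. Of all genes with an exonic region and a 3'UTR over 200 bases, 33.8% had a member. The cleavage and polyadenylation list lay below this share and the other lists near it, but the differences were not tested. Of 20 cleavage and polyadenylation genes, 1 had a member: CPSF7, a cleavage factor subunit, at 1402 bases, called in all 10 libraries with fold enrichments of 5.76 to 14.7 in T24 and 5.66 to 11.1 in T24R2. Of 30 deadenylation, decapping and microRNA silencing genes, 9 had 14 members, 6 of them called in all 10 libraries (42.9%, against 35.1% of all members). CNOT2, a scaffold subunit of the CCR4-NOT deadenylase, had fold enrichments of 18.9, 9.48, 3.59, 10.1 and 2.67 in T24 and 14.7, 18.7, 19.1, 19.9 and 23.1 in T24R2. The T24 values of CNOT2 spread widely, the lines overlapped and the rank difference did not pass (1.92 ± 0.51, limma adjusted p = 0.0731). CNOT7, a catalytic subunit of the same complex, was called in 0 T24 and 4 T24R2 libraries. CNOT9, another subunit, and PAN3, of a second deadenylase, were called in all 10 libraries with limma adjusted p-values of 0.886 and 0.738. AGO4, an Argonaute protein named after its values were seen, had regions at 330 and 2311 bases, each called in every library. Of 26 genes of 3'UTR binding proteins, 7 had 9 members, and their median percentile of 7.07 was below that of all members (45.0). ZFP36L1, which binds AU-rich elements, had its regions at mean percentiles of 2.72 and 6.91 in T24R2, and 8.20 in T24 for the only one called there. Its paralogue ZFP36L2 had a region 349 bases past the stop at percentiles of 56.2 to 97.4 in T24 and 60.6 to 89.3 in T24R2. The ZFP36L2 region extended far upstream of the stop codon, so the peak that set its rank need not lie in the distal 3'UTR. The regions of CNOT9 and of AGO4 at 330 bases also reached upstream of the stop codon. KHSRP, another AU-rich element binding protein, had calls in 2 T24R2 libraries only. The region of PUM2, a Pumilio protein, was called in 1 T24 library and 5 of T24R2. IGF2BP2, an m6A reader named after its values were seen, had regions at 279 bases (3 libraries of each line) and 1675 bases (all 10). In the rank test 0 of the 9 members of these lists that were called in all 10 libraries passed, against 16 of all 1360 members tested.

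Growth and survival genes with long 3'UTRs had 14 members in 10 of 24 genes. That is 10 of the 23 with an exonic region, against 33.8% of all such genes with a 3'UTR over 200 bases. Among such genes with 3'UTRs of 1718 to 3193 bases the share was 38.7%, and above that length it was 44.9%. The list was chosen for long 3'UTRs, and the difference was not tested. Of the 14 members 8 were called in all 10 libraries (57.1%, against 35.1% of all members), 0 were line-specific and 0 passed the rank test. CCND1, the G1 cyclin D1, had calls in 4 T24R2 libraries only, at a mean percentile of 6.54, and E2F3 and EGFR in a single library per region. IGF1R, the insulin-like growth factor receptor, had 3, at 959, 4309 and 5197 bases, each called in all 10 libraries, with mean percentiles of 77.9, 56.1 and 88.5 in T24 and 73.4, 63.7 and 87.6 in T24R2. The next genes were chosen for mention after their values were seen. BCL2, the apoptosis inhibitor, had a region at 698 bases called in all 10 (mean percentiles 88.0 and 86.1) and one at 4649 bases called in 3 T24 and 2 T24R2 libraries. The region of MDM2, the ubiquitin ligase of p53, had fold enrichments of 7.40, 8.59, 12.5, 8.51 and 10.5 in T24 and 20.2, 13.8, 12.5, 12.8 and 20.3 in T24R2 (limma adjusted p = 0.220). In SOCS3, a feedback inhibitor of cytokine signalling, the values were 9.70, 4.09, 6.98, 9.26 and 6.57 against 14.3, 27.96, 10.97, 17.5 and 9.06, with an overlap in fold enrichment (1.41 ± 0.42, limma adjusted p = 0.111). The SOCS3 region and the BCL2 region at 698 bases extended upstream of the stop codon.

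Of 16 transcripts that the study itself examined, 4 had a distal region. The study chose most of them on these samples, so they are not independent evidence of a direction. In ANO9, a member of the anoctamin family of membrane proteins, the region 280 bases past the stop was called in the 5 T24 libraries at 5.92, 7.82, 8.97, 16.8 and 4.95 and in 0 of T24R2. No other exonic region of ANO9 was called in every library, so the missing call cannot be told apart from a scarce transcript. The study lists ANO9 with lower expression in T24R2 and with higher methylation there at peaks in exons. PLA2R1, the phospholipase A2 receptor, had its region 9218 bases past the stop near the end of a 3'UTR of 9772 bases, with fold enrichments of 17.8, 16.9, 14.4, 14.5 and 15.9 in T24 and 12.4, 9.45, 6.35, 4.92 and 5.81 in T24R2. The lines did not overlap, and the rank difference was -1.70 ± 0.39 (limma adjusted p = 0.0370). FUT8, the core fucosyltransferase, had percentiles of 9.22 to 52.2 in T24 and 50.4 to 85.8 in T24R2 (limma adjusted p = 0.413). PLAU, the secreted protease urokinase, had 0.433 to 6.17 and 15.7 to 38.4, with no overlap, and did not pass (0.81 ± 0.30, limma adjusted p = 0.210). The FUT8 and PLAU regions extended upstream of the stop codon, so their ranks need not come from a peak in the distal 3'UTR. Among the epithelial and urothelial markers, GATA3 alone had a member, chosen for mention after its values were seen: the region 358 bases past the stop was called in 5 T24 libraries, at fold enrichments of 6.60 to 10.6, and in 0 of T24R2. As for ANO9, no other exonic region of GATA3 was called in every library.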

How the data were processed

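MeRIP-seq of T24 and T24R2 was analysed from 10 IP peak lists and the merged region list; the inputs entered only through the authors' peak calling. According to the labels and methods of the study, STAR 2.7.0 placed reads on hg38, SAMtools 1.10 removed duplicates and multiply mapped reads, and peaks were called per library with MACS2 3.0.0a6 over input. The fold enrichment (a ratio of IP over input) and the −log10 p and −log10 q of each peak are the authors' deposited values. The lists hold no read counts, so depth is unknown, no counting interval is given and the study's count tests could not be run. Summit offsets and region bounds were used as deposited.

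Members and gene lists were chosen with earlier results of these data known. Regions were placed on GENCODE 44 canonical transcripts (417 regions on contigs without sequence here were not placed). Each peak lay in a single merged region, and a region was called in a library when a peak of that library lay in it. A called region took the highest fold enrichment of that library's peaks. Where 3'UTRs of several transcripts overlapped (93 members) the nearest stop codon was used. Library values were compared by exact two-sided permutation or by sign flips, with Benjamini-Hochberg adjustment. Calls were compared by Fisher's exact test over all regions. Normal scores of ranks were compared with limma 3.58.1 (R 4.3.3, empirical Bayes with trend) over 9577 regions called in all 10 libraries; this script was tested on simulated data. SciPy 1.17.1 was used.

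Named regions were, per direction, the 10 line-specific members of highest lowest percentile in genes of which every library called another exonic region, the 8 of smallest limma adjusted p, the 6 of highest lowest percentile in all 10 libraries, the 5 genes with most members, genes with line-specific members of both directions, and up to 4 examples per list in list order; others are said to be chosen after their values were seen. Comparisons by distance and within genes were also chosen after seeing the data. Some of the regions so chosen are not reported here. Alternatives were equal peak numbers, a −log10 q of at least 5, at least 4-fold enrichment, 50% cover, more than 400 bases, genomic distance, the strongest summit, CDS of any transcript, other motifs and windows, other rank scales, a block for the replicate number, and each library left out in turn. Same-numbered libraries of the lines were checked for shared deviations.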

Additional observations from a re-analysis of the deposited data

Results flagged for a closer look

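In 82 groups of 5 libraries tested for a value far from the rest, 8 were found. The threshold gives about 1 in 20 for independent, normally distributed values. Most groups were percentiles, bounded at 100, of regions picked by their rank or test result, and the groups share libraries. The number found is therefore no measure of an excess. The number of peaks in T24R2 replicate 5 (33120) stood apart from the rest of its line. The other values were all from T24 libraries and were percentiles of single regions. T24 replicate 2 was low for TP73 (77.6), CARD8 (77.6) and CRKL (33.3). T24 replicate 4 was low for VCAN (88.4). T24 replicate 1 was high for GRB10 (54.1) and low for LRATD2 (52.8). T24 replicate 3 was low for RNF144B (95.5).

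In addition, 3 contrasts within the 3'UTR differed between the lines by a test of the difference itself. Distal minus stop-proximal percentile differed by -2.06 points, T24R2 minus T24 (exact permutation p = 0.00794). Within genes that had both regions in all 10 libraries the same contrast differed by -5.35 points (exact permutation p = 0.0159). Members between 200 and 400 bases minus members beyond 1600 bases differed by 5.02 points (exact permutation p = 0.0159). The last 2 were chosen after the data were seen and share regions with the first. With equal peak numbers the differences were -1.48, -4.95 and 3.79 points. The first contrast also tended to be lower in libraries with more peaks, inside each line.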

How the results depend on the processing

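Of the values that answer a comparison, 230 were kept under an alternative and 58 were not, and of those for single regions 410 of 542 were. Values with a test were kept if direction and side of the threshold held. Numbers of regions were judged by the size of their change, and line-specific regions by their calls. A region called throughout 1 line and nowhere in the other stays so when a library is left out. Such entries count among the 410 by construction, so that share is no measure of stability. The cause of each change was not tested. Differences are T24R2 minus T24 unless stated. With equal peak numbers the distal share was 0.306 percentage points, the mean percentile -2.04 (p = 0.0397 by exact permutation), the within-gene difference -4.95, and T24R2-only members numbered 58. With at least 4-fold enrichment the share was -0.587, the position 1.08, the DRACH difference -0.720, distal minus CDS -0.539 and distal minus stop-proximal over all libraries 0.527. With 50% cover the position was 0.991, distal minus CDS -0.522, and T24-only members numbered 33, of which 21 were among the 57, while 26 of 128 T24R2-only members were among the 115. For members beyond 400 bases the mean percentile was -1.57, distal minus CDS -1.30, distal minus stop-proximal over all libraries -0.00349, and T24-only members numbered 37. With the strongest summit the position was 1.04, distal minus CDS -0.111 and the DRACH difference -0.978. The last was 0.233 for GGAC and 0.648 for the window of 25 bases. Calls in at least 4 of 5 libraries against at most 1 gave 346 T24R2 and 100 T24 members (8.92% and 2.58%, against 8.36% and 2.50% of all regions). The members ranked higher and lower were 11 and 23 with −log10 p, of which 3 and 7 were among the 7 and 9, and SEMA3F was then at -0.604. They were 3 and 7 at 4-fold enrichment, 1 and 1 at 50% cover, and 3 and 7 beyond 400 bases. Leaving out single libraries gave 2 to 6 higher and 4 to 7 lower, a position of 0.728 to 1.43, a share of -0.805 to -0.463, a mean percentile of -0.696 to 0.259 and distal minus CDS of -0.355 to 0.553.

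Same-numbered libraries of the lines did not deviate together. Their correlations ran from -0.046 to 0.122, and only replicate 5 correlated best with its own number, so the numbers were not taken as pairs. A replicate block gave 4 higher and 7 lower members. Its exact test over 5 pairs cannot go below p = 0.0625, which the difference of 519.4 distal regions and that of -2.06 points reached, and the position difference under the block was 1.19. The peak lists hold no read counts, so no test on counts was run and the depth behind a missing call is unknown.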
